A study of Homo sapiens with 27 samples.

Results

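The respiratory chain genes described here are 72 of the 10470 genes in the deposited table, chosen by name to take in nuclear-encoded subunits of the mitochondrial complexes I to V. Their symbols begin with NDUFA, NDUFB, NDUFC, NDUFS or NDUFV, UQCR, COX4 to COX8 or ATP5, or are SDHA, SDHB, SDHC or SDHD. Subunits with other names, such as CYC1 of complex III, are not among the 72. By textbook subunit lists 34 belong to complex I, 4 to complex II, 8 to complex III, 10 to complex IV and 14 to complex V. The other 2, COX7A2L (a supercomplex assembly factor) and ATP5S (a coupling factor), are no structural subunits. NDUFA4 was counted with complex IV, where its protein is found.

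The RNA was from DLD1, an established line of human colorectal carcinoma, taken 72 h after siRNA transfection and read by amplicon sequencing. VPS37A, VPS37B and VPS37C, the genes targeted, encode interchangeable parts of ESCRT-I, which directs ubiquitinated membrane proteins to degradation in the lysosome. The 27 libraries form 9 groups of 3: non-transfected cells (NT), cells given control siRNAs (siCTRL; which control siRNAs each group received is not given here), single knockdowns (siVPS37A, siVPS37B, siVPS37C), pair knockdowns (siVPS37AB, siVPS37AC, siVPS37BC) and the triple knockdown (siVPS37ABC). All groups are the same line, and each paralog was targeted by 1 siRNA, so loss of a paralog and any other action of its siRNA cannot be told apart. Values are in TPM, each library summing to 1000000, of unknown sequencing depth. Each library holds RNA of many cells, so fewer cells that express a gene and less of its RNA per cell cannot be told apart. Because every library sums to the same total, a fall of a gene and a rise of other RNA cannot be told apart either.

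Complex I oxidises NADH and complex II oxidises succinate, and both pass electrons through ubiquinone to complex III, cytochrome c and complex IV, which reduces oxygen. The protons pumped by complexes I, III and IV drive ATP synthesis by complex V. Most subunits are encoded in the nucleus, and their genes are known targets of the transcription factors NRF1, GABPA (of the ETS family) and YY1. Several catalytic subunits are encoded by mitochondrial DNA and are not among the genes described.

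RefSeq promoter windows (GRCh38.p14, 250 bases before to 50 after the start) matched 60 of the 72 genes, with 69 windows. The motifs searched on both strands were GCATGCGC for NRF1, CCGGAAG for the ETS family and AAGATGGC for YY1. NRF1's letters were in 20.3% of these windows, against 3.05% of all 35116 windows in the table. The ETS letters were in 30.4% against 10.3%, and those of YY1 in 18.8% against 2.89%. At least 1 of the 3 was in 53.6% of these windows and in 14.9% of all. The 250 bases before the start are printed for 4 genes named in the expression results, as examples that differ in these motifs. Capitals mark the motifs. In NDUFA2 none of the 3 letter strings occurs, COX6B1 has the ETS letters, and COX6A1 and SDHD have both ETS and NRF1 letters, the latter at 2 positions each, overlapping in SDHD.
NDUFA2, chr5:140647631-140647880 (minus strand): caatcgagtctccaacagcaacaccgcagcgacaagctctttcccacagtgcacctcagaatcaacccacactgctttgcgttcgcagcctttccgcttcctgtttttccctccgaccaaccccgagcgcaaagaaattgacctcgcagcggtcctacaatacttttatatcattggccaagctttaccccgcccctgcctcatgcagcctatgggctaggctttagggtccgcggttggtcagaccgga
COX6B1, chr19:35648073-35648322 (plus strand): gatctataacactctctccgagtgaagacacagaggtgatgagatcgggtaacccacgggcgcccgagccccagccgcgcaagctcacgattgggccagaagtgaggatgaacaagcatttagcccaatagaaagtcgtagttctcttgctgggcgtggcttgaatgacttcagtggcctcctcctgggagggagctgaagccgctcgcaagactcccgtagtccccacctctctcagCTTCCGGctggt
COX6A1, chr12:120437863-120438112 (plus strand): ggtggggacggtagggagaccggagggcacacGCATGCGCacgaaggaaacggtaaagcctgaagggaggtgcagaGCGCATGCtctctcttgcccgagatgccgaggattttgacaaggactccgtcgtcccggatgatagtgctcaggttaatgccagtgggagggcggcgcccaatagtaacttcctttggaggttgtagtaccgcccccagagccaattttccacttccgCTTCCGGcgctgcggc
SDHD, chr11:112086623-112086872 (plus strand): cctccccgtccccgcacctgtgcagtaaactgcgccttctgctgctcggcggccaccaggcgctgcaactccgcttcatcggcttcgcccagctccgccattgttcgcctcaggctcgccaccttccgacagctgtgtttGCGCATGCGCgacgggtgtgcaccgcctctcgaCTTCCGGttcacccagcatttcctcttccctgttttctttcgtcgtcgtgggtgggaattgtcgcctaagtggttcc

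A match to these letters is a description of the sequence, and binding was not measured.

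The siRNAs lowered their targets in every library meant to lack them: VPS37A stood at 2.52 to 10.2% of the siCTRL mean, VPS37B at 2.08 to 8.78% and VPS37C at 17.8 to 31.8%. In siCTRL itself VPS37A was low, at 4.77 to 6.57 TPM, where VPS37B and VPS37C had means of 46.4 and 17.5 TPM. With depth unknown, the percentages of VPS37A are less certain. Of 8 colorectal epithelial markers in the table, 7 had a mean of at least 10 TPM, and their sum ran from 7848 to 12580 TPM. Of the markers of fibroblasts, leukocytes, endothelium and muscle listed for the check, only the leukocyte marker CD14 was in the table, at 1.99 to 9.43 TPM. Libraries of the same replicate number resembled each other, and the labels give this number as the batch. The labels call the replicates biological, and p-values measure the spread between these libraries.

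Together the 72 genes made up 2.78 to 3.64% of the RNA measured per library. The mean share was 3.38 ± 0.18% in siCTRL, 3.12 ± 0.29% in NT and 3.07 ± 0.07% in siVPS37ABC (SD, n = 3). Of the 27 libraries NT replicate 1 had the lowest share. Within siCTRL, complex V contributed a mean of 1.19%, complex I 0.959 to 1.19% by library, complex IV a mean of 0.923%, complex III 0.120% and complex II 0.0443% of the total. Listed means over all libraries ran from 4.37 (NDUFV3) to 2143 TPM (NDUFA13) in complex I, up to 208 TPM (SDHC) in complex II, where SDHA was lowest at 20.3 to 34.9 TPM by library, and from 0.394 (UQCRB) to 548 TPM (UQCRQ) in complex III. In complex IV they ran from 152 (COX7B) to 2747 TPM (COX6A1), and in complex V from 31.8 (ATP5J) to 4984 TPM (ATP5J2). Whether the values are divided by length is not given, and an amplicon can miss an isoform, so genes were compared with themselves across groups and not with each other.

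A difference between groups is given on the log2(TPM + 1) scale, plus or minus its standard error (SE). It comes from a single limma model over the 27 libraries, fitted to 6458 genes whose mean reached 10 TPM. A gene is called where its p, adjusted over all 6458 genes by the Benjamini-Hochberg method, is under 0.05. Of the 72 genes, 66 were tested, and NDUFV3, NDUFB3, NDUFB6, UQCRB, UQCRH and ATP5S were below 10 TPM.

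Over all 9 groups, 10 of the 66 genes (15.2%) differed by limma's moderated F test, against 34.0% of all genes tested. They were the complex I subunits NDUFA2, NDUFA3 and NDUFB10, the complex II membrane anchor SDHD, the complex IV subunits COX6B1, COX6C, COX7B and COX7C, and, in complex V, ATP5B (the catalytic beta subunit) and ATP5G1 (a c subunit of the rotor ring). None of the 6 tested complex III genes was among them. The range of the 9 group means had a median of 0.47 over the 66 genes and of 0.55 over all genes tested. With the replicate number as a block, 25 of the 66 were called, against 57.6% of all genes, and with a term for the number that ends each library description, 25 against 54.2%. What that number stands for is not given. With it NDUFA3 (adjusted p = 0.131) and ATP5G1 (0.0782) missed the threshold, and after median ratio scaling COX6B1 (0.0954), COX6C (0.0628) and ATP5B (0.123) did. Without 1 library at a time, the count was 7 to 13, and the call of ATP5B was lost in 18 of 27 omissions and that of ATP5G1 in 15. Omission of siVPS37ABC replicate 2 or 3 ended the call of NDUFB10 (adjusted p = 0.0571 and 0.0686), and that of siVPS37B replicate 1 or 2 the call of COX6C (0.176 and 0.0822).

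In the triple knockdown 5 of the 66 genes fell and none rose. The falls in siVPS37ABC against siCTRL were in the complex I accessory subunits NDUFA2, NDUFB10, NDUFA3 and NDUFB11 and in ATP5G1. These 5 are 7.58% of the 66, where 8.32% of all genes tested were called lower, 13.6% higher and 21.9% in either direction. After median ratio scaling the split over all genes was 803 higher to 704 lower, where it was 880 to 537, and after quantile normalization 765 to 753. A change of over 0.5 in size was seen in 7.58% of the 66 genes, in 20.7% of all genes tested, in 2.70% of 74 cytosolic ribosomal protein genes and in 0% of 32 proteasome subunit genes.

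NDUFA2, an accessory subunit of complex I, was at 254, 370 and 317 TPM in the siCTRL libraries and at 159, 162 and 158 TPM in siVPS37ABC. The groups did not overlap, and the 3 triple knockdown libraries lay within a few TPM of each other. The difference was -0.95 ± 0.17 (limma, adjusted p = 0.00014). NDUFB10, an accessory subunit of the membrane arm, was at 93.3, 96.3 and 91.0 TPM in siCTRL and at 64.0, 55.0 and 50.7 TPM in siVPS37ABC. Again every triple knockdown library was below every siCTRL library, with a difference of -0.72 ± 0.16 (adjusted p = 0.00137).

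ATP5G1 was at 356, 302 and 336 TPM in siCTRL and at 244, 203 and 180 TPM in siVPS37ABC, a difference of -0.67 ± 0.17 (adjusted p = 0.00481), with no overlap. ATP5G2 and ATP5G3 encode the same mature c subunit. Their differences were -0.30 ± 0.15 (adjusted p = 0.150) and -0.44 ± 0.21 (adjusted p = 0.147), which did not pass the test. Both passed, lower, with the replicate number as a block (adjusted p = 0.0334 and 0.0203). Whether the 3 genes differ from each other was not tested.

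NDUFA3 was at 203, 255 and 229 TPM in siCTRL and at 185, 154 and 143 TPM in siVPS37ABC (-0.51 ± 0.15, adjusted p = 0.0140). Its call was lost without siCTRL replicate 2 (adjusted p = 0.0742) or siVPS37ABC replicate 3 (0.0678). All 3 NT libraries, at 155, 162 and 202 TPM, lay below siCTRL, and 2 of them within the range of the triple knockdown. Against NT the difference was -0.10 (adjusted p = 0.662). NDUFB11 was at 279, 283 and 296 TPM in siCTRL and at 241, 242 and 212 TPM in siVPS37ABC (-0.30 ± 0.11, adjusted p = 0.0416). This call was lost in all 6 omissions of 1 library, with adjusted p from 0.0575 to 0.152, and with the library number term (0.0672) or only the groups compared (0.152), and against NT the difference was -0.09 (adjusted p = 0.567). Against NT, the falls of NDUFA2 (-0.77, adjusted p = 0.00116), NDUFB10 (-0.60, adjusted p = 0.00589) and ATP5G1 (-0.57, adjusted p = 0.0141) passed.

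In the other complexes the smallest p in siVPS37ABC belonged to SDHD in complex II (-0.32 ± 0.13, adjusted p = 0.0810), UQCRC2, a core protein of complex III (-0.10 ± 0.13, adjusted p = 0.614), and COX8A in complex IV (-0.31 ± 0.16, adjusted p = 0.170). SDHD passed with the replicate block (adjusted p = 0.0339), after quantile normalization (0.0262) or median ratio scaling (0.0295) and against NT (adjusted p = 0.00135), and COX8A with the library number term (0.0322) and against NT (0.0267). NDUFB1 was at -0.78 ± 0.34 (adjusted p = 0.102) and passed with the block (0.0150). With the replicate number as a block 10 of the 66 genes were called in the triple knockdown, 9 lower and 1 higher, against 33.1% of all genes. The library number term gave 12, 9 lower and 3 higher, against 30.1%.

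Complex by complex, the medians in the triple knockdown were -0.10 over the 31 tested genes of complex I, -0.06 over 4 of complex II, 0.00 over 6 of complex III, -0.12 over 10 of complex IV and -0.12 over 14 of complex V. The median of all genes tested was 0.03. In complex I, 10 of 31 genes lay above 0, in complex II 2 of 4, in complex III 3 of 6, in complex IV 4 of 10 and in complex V 5 of 14. Complex III spanned the narrowest range, from -0.10 to 0.04, and complex I the widest, from -0.95 (NDUFA2) to 0.39 (NDUFA10). Differences between the complexes were not tested. The supercomplex assembly factor COX7A2L was at 0.07 ± 0.15 (adjusted p = 0.782) in siVPS37ABC, and NDUFA4 of complex IV at -0.05 ± 0.18 (adjusted p = 0.876), and at 0.34 against NT (adjusted p = 0.177).

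**Figure D1:**
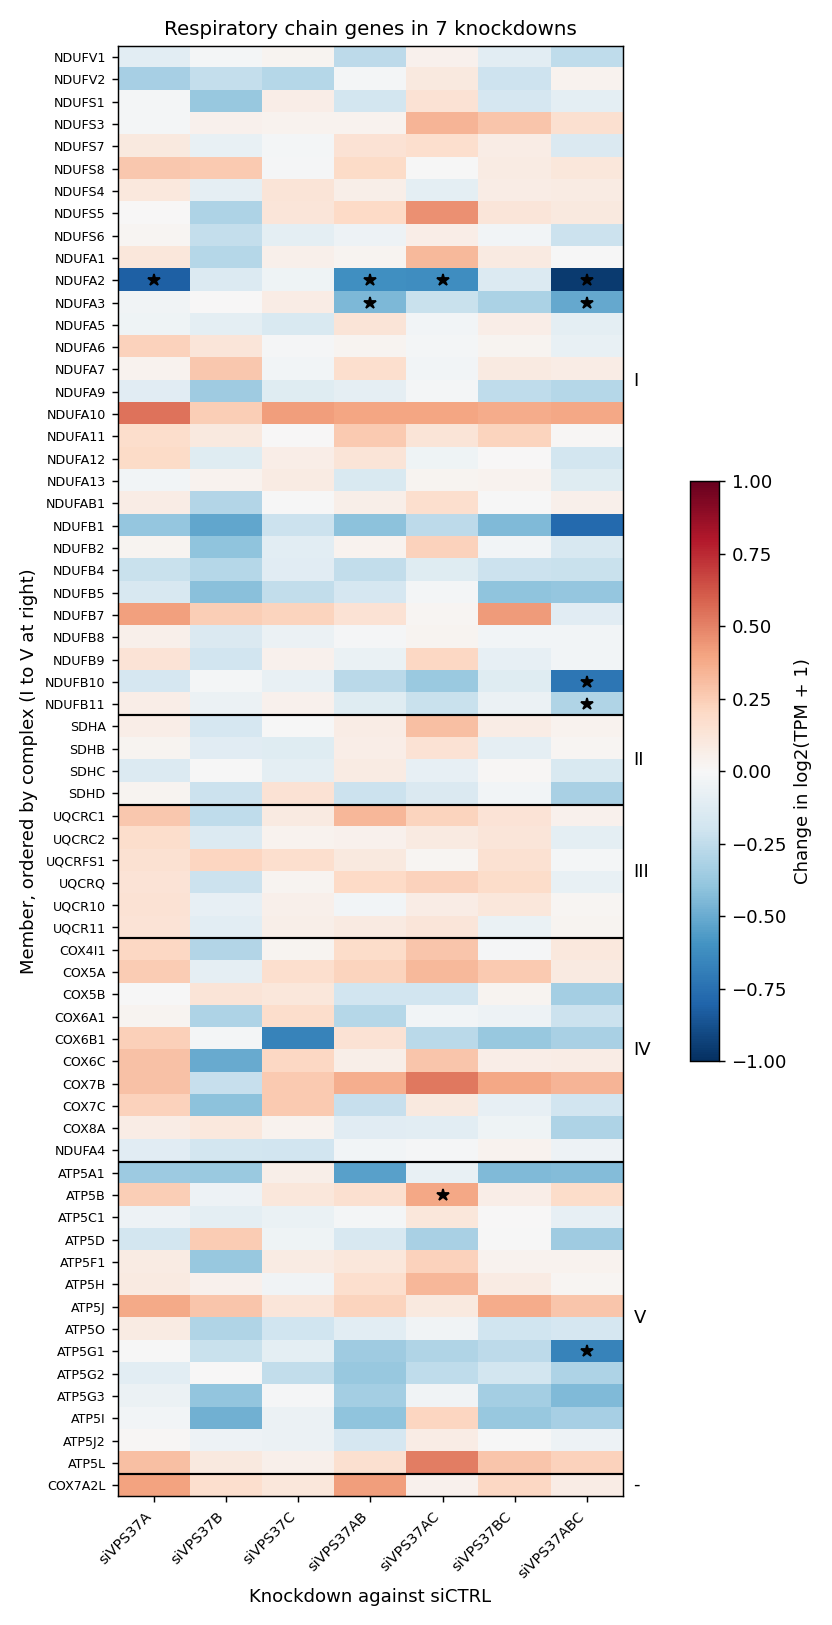
Change in log2(TPM + 1) of tested genes (rows, ordered by complex, separated by lines; 1 gene is not shown) in each of 7 knockdowns against siCTRL (columns). Colour gives the change, and stars mark genes past the adjusted threshold; NDUFA2 is starred in 4 columns, and 5 genes are starred in siVPS37ABC.

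Fewer genes moved in the pair and single knockdowns. NDUFA2 fell in siVPS37A (-0.82 ± 0.17, adjusted p = 0.0075), the only gene called there of the 66, against 1.83% of all genes. It fell in siVPS37AB (-0.62 ± 0.17, adjusted p = 0.0131) together with NDUFA3 (-0.45 ± 0.15, adjusted p = 0.0397), where 14.8% of all genes were called. In siVPS37AC it fell by 0.62 (SE 0.17, adjusted p = 0.0330), while ATP5B rose from 798, 789 and 955 TPM in siCTRL to 1104, 1104 and 1101 TPM, by 0.39 ± 0.11 (adjusted p = 0.0385), against 4.40% of all genes called.

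Single libraries decided several of these calls. The call of NDUFA2 in siVPS37A was lost without siCTRL replicate 2 (adjusted p = 0.0610) or siVPS37A replicate 1 (0.0585) and with only the groups compared (0.0755), and that in siVPS37AB without siCTRL replicate 2 (0.0858) or siVPS37AB replicate 1 (0.108). NDUFA3 in siVPS37AB was lost without siCTRL replicate 2 (0.160) or 3 (0.0916) or siVPS37AB replicate 3 (0.215), with the library number term (0.105) or only the groups compared (0.0642), and against NT its difference was -0.04 (adjusted p = 0.880). Both calls in siVPS37AC were lost in 5 of 6 omissions, with adjusted p up to 0.171 for NDUFA2 and 0.154 for ATP5B, and that of ATP5B also after median ratio scaling (0.0952) or with only the groups compared (0.0978). Against NT, NDUFA2 missed the threshold in siVPS37AB (-0.44, adjusted p = 0.0673) and siVPS37AC (-0.44, adjusted p = 0.0756).

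In siVPS37B, siVPS37C and siVPS37BC limma called none of the 66 genes, with 6, 3 and 2 at an unadjusted p under 0.05. Of all genes tested, 1.72%, 0.496% and 1.29% were called. In siVPS37B the smallest p was that of COX6C (-0.50 ± 0.18, adjusted p = 0.157), followed by COX7C (-0.41 ± 0.15, adjusted p = 0.173), and in siVPS37C that of COX6B1 (-0.67 ± 0.21, adjusted p = 0.200). These 3 subunits of complex IV passed with the replicate number as a block, COX6C at 0.0373, COX7C at 0.0251 and COX6B1 at 0.00535. The block called 2 of the 66 genes in siVPS37B against 9.40% of all genes, 1 in siVPS37C against 2.07% and 0 in siVPS37BC against 4.38%. It called 3 in siVPS37A against 6.33%, 7 in siVPS37AB against 25.6% and 4 in siVPS37AC against 11.8%. The library number term called 6 in siVPS37AB against 18.9% and 15 in siVPS37AC against 19.0%, 10 of these higher. It called COX6B1 lower in siVPS37C, against 0.929%, and in siVPS37BC, against 2.40%. With NT in place of siCTRL 9 of the 66 genes were called in siVPS37AC, 7 higher and 2 lower, against 14.1% of all genes, and SDHD alone in siVPS37B, lower, against 4.13%.

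The knockdowns and siCTRL form a complete factorial layout, so each siRNA can also be read over 12 libraries that received it and 12 that did not. These averages over the other knockdowns use siCTRL and leave out NT. The same differences can be read within 4 separate pairs of groups that differ by that siRNA alone, here called backgrounds. The values in the backgrounds were computed after the data were seen and are given as descriptions.

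On average over the backgrounds, VPS37A siRNA lowered NDUFA2, NDUFB10, NDUFA3, COX5B and ATP5D and raised ATP5B, COX4I1 and COX7B. These are 5 of the 66 genes lower (7.58%) against 8.13% of all genes, 3 higher (4.55%) against 20.9%, and 8 in all against 29.1%. The split over all genes, 1352 higher to 525 lower, was 880 to 941 after median ratio scaling and 905 to 914 after quantile normalization. NDUFA2 was at 156, 207 and 168 TPM in siVPS37A, 163, 223 and 227 TPM in siVPS37AB, 202, 200 and 203 TPM in siVPS37AC and 159, 162 and 158 TPM in siVPS37ABC. The groups without this siRNA held 216, 284 and 335 TPM in NT, 290, 269 and 287 TPM in siVPS37B, 266, 346 and 298 TPM in siVPS37C and 232, 292 and 330 TPM in siVPS37BC, beside the siCTRL values above. Only 1 of the 15 libraries without it, NT replicate 1, lay below the highest of the 12 with it, and 2 of the 12 lay above that library.

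Averaged over the backgrounds, NDUFA2 changed by -0.67 ± 0.08 with VPS37A siRNA (limma, adjusted p = 1.0354e-06), and this call held in all 24 omissions of 1 library. Within the backgrounds the difference was -0.82 in siCTRL, -0.48 in siVPS37B, -0.58 in siVPS37C and -0.81 in siVPS37BC, each with an SE of 0.17. Libraries of both kinds shared 6 of the numbers that end the library descriptions, and within each of these 6 every library with the siRNA was below every library without it. Some of these numbers hold only 1 library of a kind. Read in the same way, NDUFB10 was below in 4 numbers and overlapped in 2. NDUFA3 was below in 1, overlapped in 4 and was above in 1. COX7B was above in 3 and overlapped in 3, and ATP5B was above in 5 and overlapped in 1. For VPS37B siRNA ATP5G1 was below in 5 and overlapped in 2. The genes read in this way had been called on these same libraries, so this reading is a description. The share of all genes separated in this way was not computed. Groups explained 79.9% of the variance of NDUFA2 over the 27 libraries, against a median of 37.3% over the 66 genes and 48.4% over all genes tested.

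NDUFB10 changed by -0.33 ± 0.08 with VPS37A siRNA (adjusted p = 0.00242), from -0.17 in siCTRL to -0.60 in siVPS37BC. ATP5B, the catalytic subunit, changed by 0.21 ± 0.05 (adjusted p = 0.0040) and was higher in all 4 backgrounds, by 0.12 to 0.27. COX4I1 rose by 0.26 ± 0.08 (adjusted p = 0.0180) and COX7B by 0.28 ± 0.09 (adjusted p = 0.0238). COX7B was higher by 0.60 in siVPS37B and at -0.04 in siVPS37BC, and its call was lost without siVPS37AB replicate 3 (adjusted p = 0.0507).

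The remaining falls with VPS37A siRNA were NDUFA3 (-0.24 ± 0.07, adjusted p = 0.0149), COX5B (-0.25 ± 0.09, adjusted p = 0.0425) and ATP5D, the delta subunit of the central stalk (-0.31 ± 0.12, adjusted p = 0.0492). In the siCTRL background NDUFA3 was at -0.03 and COX5B at -0.01. In siVPS37B, siVPS37C and siVPS37BC NDUFA3 was at -0.45, -0.29 and -0.20, and COX5B at -0.32, -0.31 and -0.37. COX5B was lost in 14 and ATP5D in 15 of 24 omissions, and ATP5D also without the filter on low genes (0.0526) or with a minimum mean of 50 TPM (0.0527). COX4I1 (0.19, adjusted p = 0.148) and COX7B (0.21, adjusted p = 0.0680) missed the threshold after median ratio scaling, and COX7B also after quantile normalization (0.22, adjusted p = 0.0649). With the library number term NDUFA3 (adjusted p = 0.121) and COX5B (0.203) missed it, and 22 of the 66 genes passed, 15 higher, against 36.8% of all genes. With the replicate number as a block 13 passed, 7 higher and 6 lower, against 40.5%.

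On average over the backgrounds, VPS37B siRNA lowered 8 of the 66 genes (12.1%) and raised none. Of all genes 7.54% were called lower, 8.69% higher and 16.2% in all. The 8 were NDUFA3 in complex I, SDHD in complex II, COX7C, COX6A1 and COX6C in complex IV, and ATP5G1, ATP5G3 and the membrane subunit ATP5I in complex V. The median over the 66 genes was -0.08, against 0.00 over all genes tested, and 16 of the 66 lay above 0. Under the other scalings the median was -0.08 and -0.09. The medians by complex were -0.10, -0.06, -0.08, -0.08 and -0.09 for complexes I to V.

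COX7C, a small subunit of complex IV, was at 1044, 1353 and 1156 TPM in siVPS37B and at 1536, 1708 and 1463 TPM in siCTRL. With the siRNA in the other groups it was at 1213, 1428 and 1366 TPM in siVPS37AB, 1349, 1666 and 1451 TPM in siVPS37BC and 1309, 1516 and 1290 TPM in siVPS37ABC. The siVPS37B and siCTRL groups did not overlap, and siVPS37BC and siVPS37ABC overlapped siCTRL. Over the backgrounds COX7C changed by -0.38 ± 0.08 (adjusted p = 0.00145), with -0.41 in siCTRL, -0.46 in siVPS37A, -0.34 in siVPS37C and -0.29 in siVPS37AC, and no omission of 1 library ended the call. In 6 of the 7 library numbers that hold libraries of both kinds, all with the siRNA were below all without it. These numbers hold only 1 library of a kind, and COX7C had been called on the same libraries. In siVPS37B alone, the complex IV genes had medians of -0.21, -0.21 and -0.24 against the siCTRL mean in the 3 libraries. The siCTRL libraries, which are their own reference, had -0.08, 0.05 and 0.01. In the other groups with this siRNA the medians were -0.02, 0.03 and 0.07 in siVPS37AB and 0.03, 0.09 and -0.01 in siVPS37BC. They were -0.16, -0.09 and -0.10 in siVPS37ABC.

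COX6A1 changed by -0.26 ± 0.07 (adjusted p = 0.0171), ATP5G3 by -0.35 ± 0.11 (adjusted p = 0.0243), ATP5G1 by -0.28 ± 0.08 (adjusted p = 0.0244) and NDUFA3 by -0.27 ± 0.07 (adjusted p = 0.0126). In the siCTRL background NDUFA3 was at 0.00, and in siVPS37A, siVPS37C and siVPS37AC at -0.42, -0.39 and -0.29. ATP5G2 was at -0.07 ± 0.07 (adjusted p = 0.589). SDHD (-0.20 ± 0.07, adjusted p = 0.0372) lost its call in 14 and COX6C (-0.27 ± 0.09, adjusted p = 0.0428) in 17 of 24 omissions, and ATP5G3 lost it without siCTRL replicate 3 (0.0528) or siVPS37BC replicate 1 (0.0507). ATP5I was at -0.43 ± 0.13 (adjusted p = 0.0228), and at -0.11 (adjusted p = 0.566) with the library number term.

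That term also ended the calls of NDUFA3 (adjusted p = 0.0590), COX6A1 (0.0931) and COX6C (0.136). It left 4 genes called with VPS37B siRNA, COX7C, ATP5G3, ATP5G1 and SDHD, against 15.3% of all genes, and the replicate block gave 15, 14 of them lower, against 28.8% of all genes. COX6A1 (-0.21, adjusted p = 0.0562) and COX6C (-0.25, adjusted p = 0.0544) also missed the threshold after quantile normalization. Of the 66 genes, 20 (30.3%) were lower in all 4 backgrounds and 2 (3.03%) higher, against 16.8% and 17.8% of all genes tested. For VPS37A siRNA the same counts were 8 lower (12.1%) and 10 higher (15.2%), against 11.9% and 27.7%, and for VPS37C siRNA 7 (10.6%) and 5 (7.58%), against 15.5% and 15.2%.

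VPS37C siRNA changed 1 gene, COX6B1, against 10.5% of all genes. COX6B1, a complex IV subunit on the intermembrane space side, was at 1539, 1138 and 860 TPM in siVPS37C, 1754, 1503 and 1320 TPM in siVPS37AC, 1619, 1341 and 1285 TPM in siVPS37BC and 1645, 1416 and 1339 TPM in siVPS37ABC. Without this siRNA it was at 1867, 1982 and 1462 TPM in NT, 2125, 1797 and 1597 TPM in siCTRL, 2573, 1941 and 2016 TPM in siVPS37A, 2406, 2023 and 1208 TPM in siVPS37B and 2058, 1946 and 2051 TPM in siVPS37AB. Of the 15 libraries without it, 3 lay below the highest of the 12 with it, replicate 3 of NT, siCTRL and siVPS37B, all with the library number 603. Of the 12 with it, 10 lay above the lowest without it, siVPS37B replicate 3.

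COX6B1 changed by -0.50 ± 0.10 with VPS37C siRNA (limma, adjusted p = 0.00177), with -0.67 in siCTRL, -0.51 in siVPS37A, -0.36 in siVPS37B and -0.47 in siVPS37AB (SE 0.21 each). The call held in all 24 omissions. Replicate number accounted for 26.5% of its variance and group for 58.8%, with higher values in replicate 1. Within each of the 7 library numbers that hold libraries of both kinds, all libraries with the siRNA were below all without it. Most of these numbers hold only 1 library of a kind. COX6B1 had been called on the same libraries, so this is a description. With the replicate block 4 genes were called, COX6B1 (adjusted p = 5.9308e-06) and NDUFB10 lower and COX7B and NDUFS3 higher, against 20.8% of all genes, and with the library number term 7 against 21.5%.

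**Figure D2:**
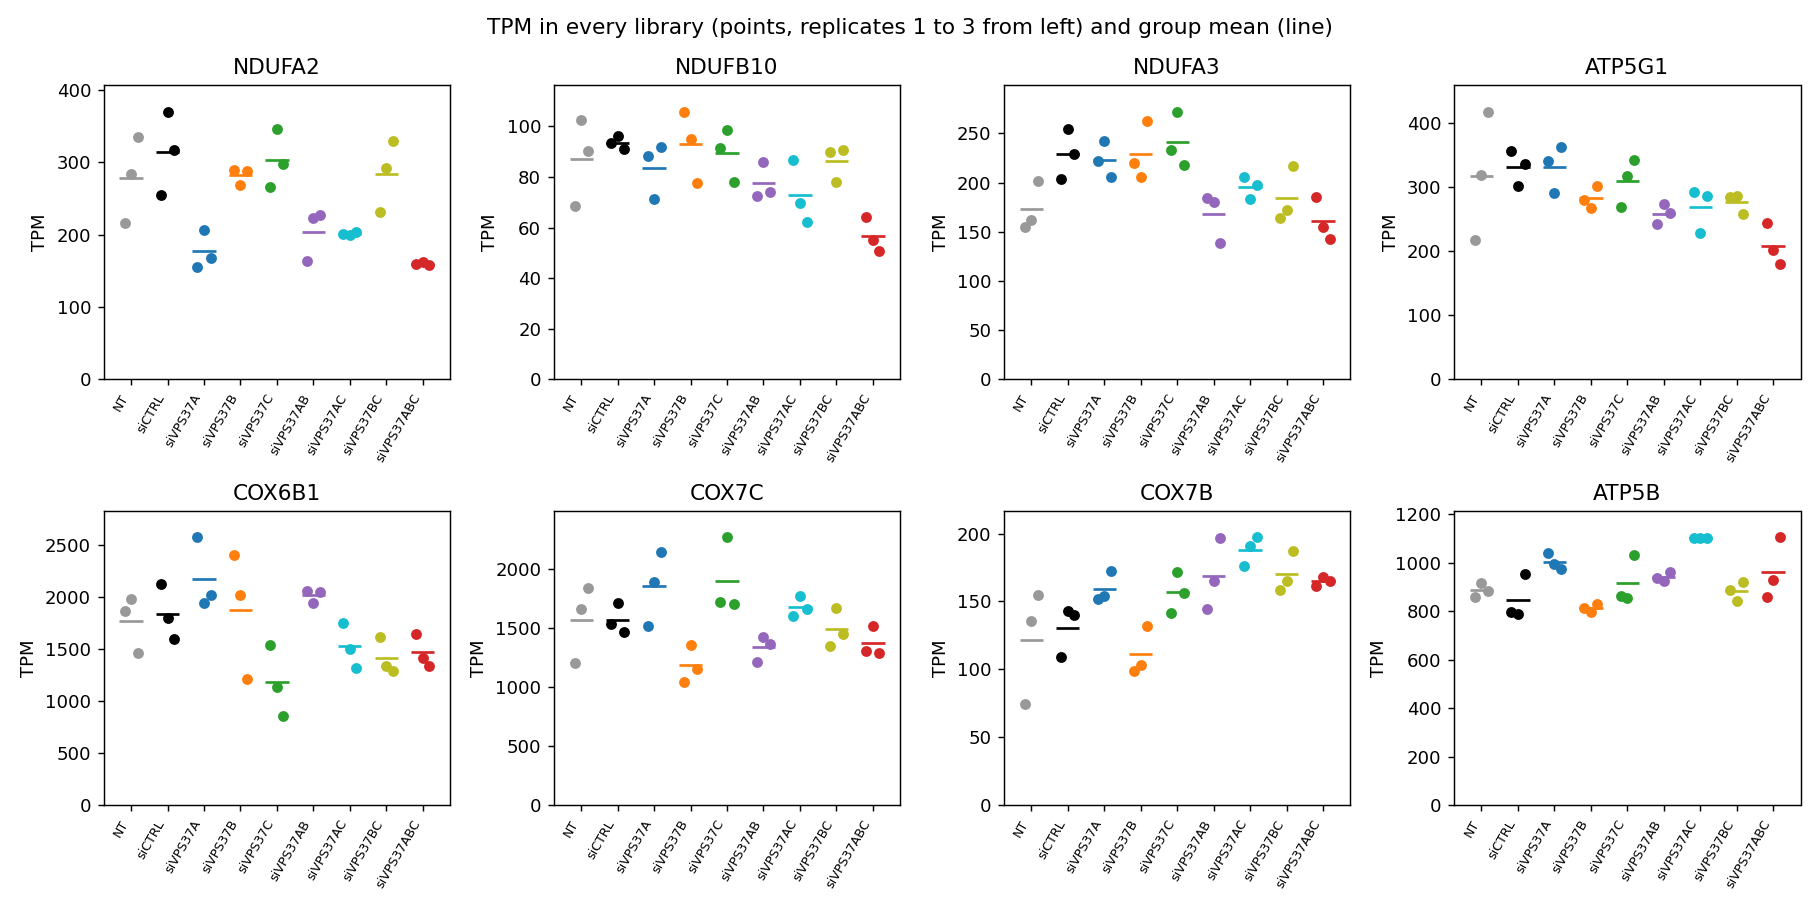
TPM of 8 called genes in every library (points, replicates 1 to 3 from left to right) with the group mean (line); each panel starts at 0. NDUFA2 is low in the 4 groups whose names hold A (156 to 227 TPM), COX6B1 in those with C, COX7C is lowest in siVPS37B, and the siVPS37AC values of ATP5B lie almost on each other.

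Whether the siRNAs acted differently in each other's presence was tested with interaction terms in the same limma model. None of the 66 genes passed for VPS37A by VPS37B, VPS37A by VPS37C or VPS37B by VPS37C, with 0, 7 and 0 at an unadjusted p under 0.05. Of all genes tested, 0.666%, 0.00% and 0.00% passed. The lowest adjusted p of the 66 genes was 0.614 for VPS37A by VPS37B. NDUFB10, lowest in siVPS37ABC of all groups, had no interaction that passed. These terms were chosen after the data were seen.

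**Figure D3:**
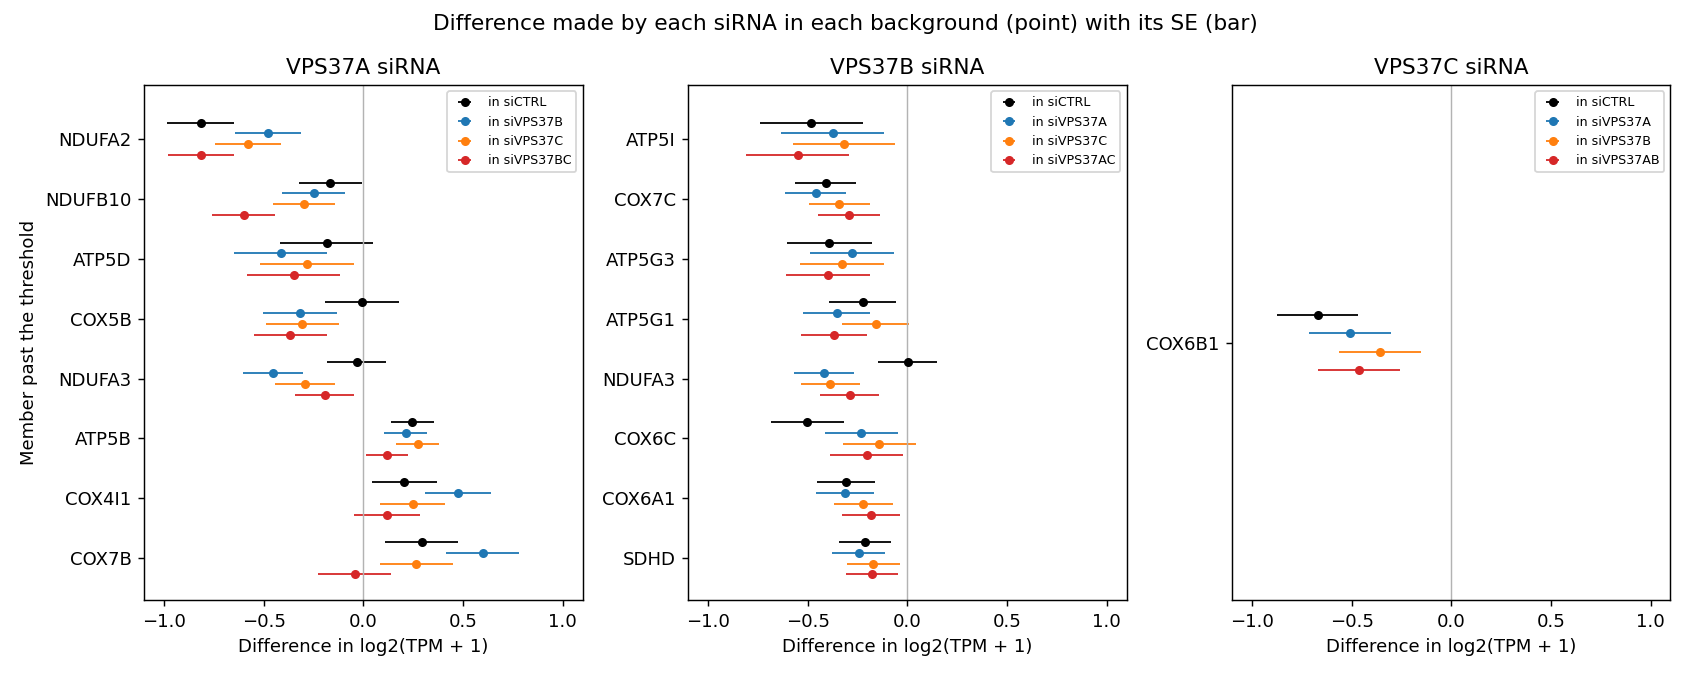
Difference in log2(TPM + 1) made by each siRNA (panels) in the 4 backgrounds (colours) for the genes called over all backgrounds, with 1 SE as bar. NDUFA2 and COX6B1 lie below 0 in all 4 backgrounds, and COX7B reaches from -0.04 to 0.60.

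Transfection itself was read from siCTRL against NT. limma called none of the 66 genes, with 11 at an unadjusted p under 0.05, against 3.17% of all genes called. The replicate block called 2, NDUFB4 higher (0.39, adjusted p = 0.0415) and ATP5J, of the peripheral stalk, lower (-0.63, adjusted p = 0.0439), against 8.86%. The library number term called 3, NDUFA4 higher and ATP5J and NDUFA7 lower, against 10.2%. Complex I had a median of 0.21, with 23 of 31 genes above 0, where all genes had a median of 0.00. This rested on NT replicate 1, whose complex I genes had a median of -0.51 and complex IV genes of -0.40 against the siCTRL mean, while NT replicates 2 and 3 stood at -0.06 and -0.08 in complex I. Without it the median of complex I was 0.09 and that of complex IV turned from 0.07 to -0.13.

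**Figure D4:**
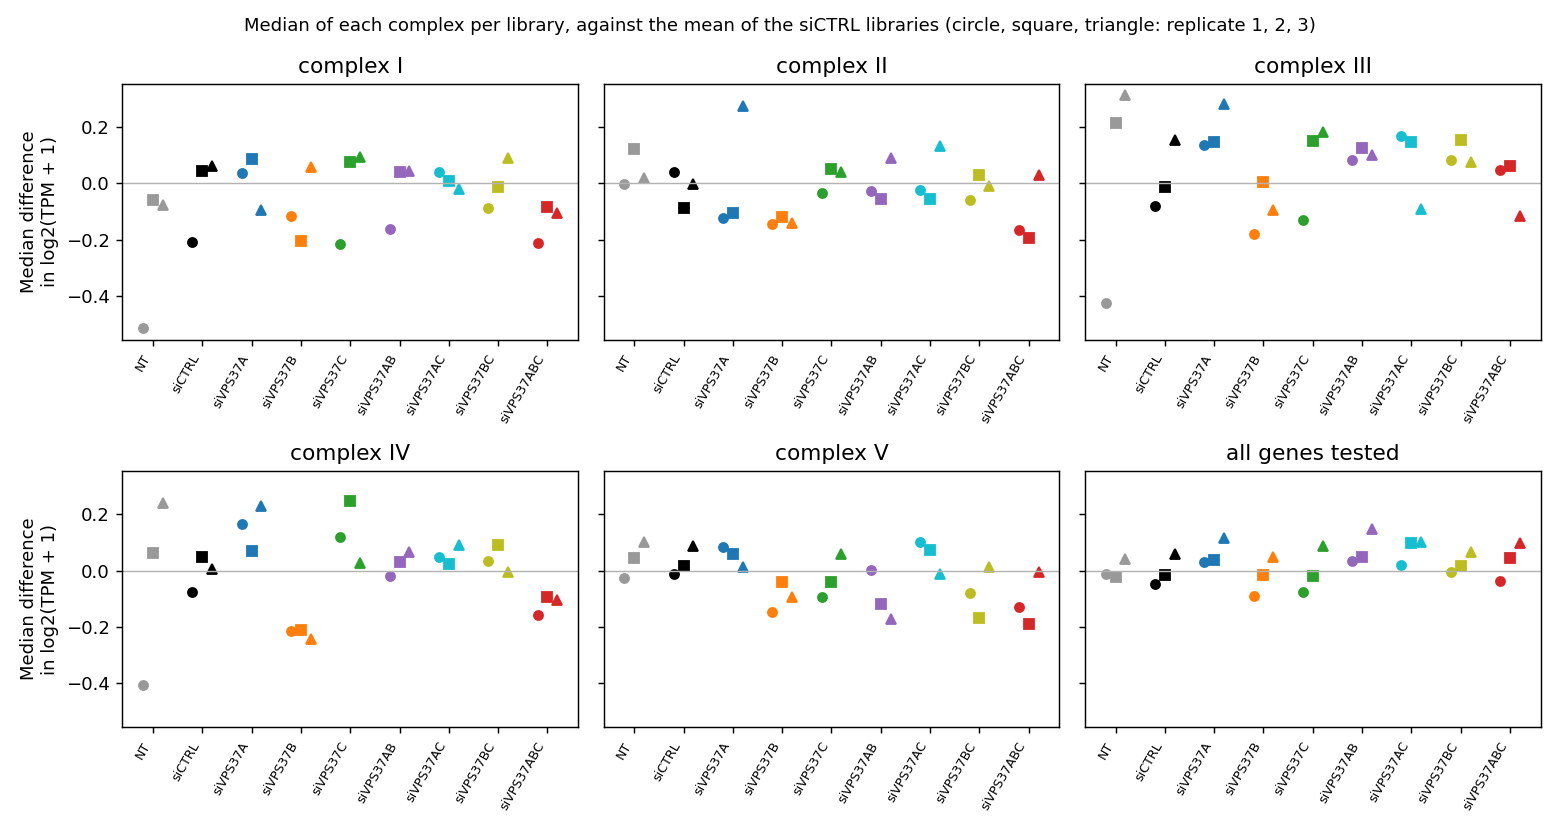
Median difference in log2(TPM + 1) of the tested genes of each complex in each library, against the mean of the 3 siCTRL libraries; circle, square and triangle are replicates 1, 2 and 3. NT replicate 1 stands lowest in complexes I, III and IV (-0.51, -0.42 and -0.40) and not in complexes II and V.

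Replicate number accounted for a median of 24.8% of the variance of the 66 genes and of 15.8% over all genes tested. The values for 69 mitochondrial ribosomal protein genes, 74 cytosolic ribosomal protein genes and 32 proteasome genes were 20.9%, 21.9% and 15.5%. The largest shares were those of NDUFS7 (63.6%), SDHB (59.9%) and NDUFA5 (57.0%). NDUFV2, an iron-sulphur subunit of the NADH dehydrogenase module, was at 139, 184 and 258 TPM in siCTRL and at 125, 169 and 334 TPM in siVPS37ABC, with 45.4% of its variance by replicate number and 18.7% by group. The groups overlapped, and replicate 1 was lowest in both.

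Pairs of genes within and between complexes were set side by side. Over the 27 libraries the median Pearson r was 0.13 for 622 pairs within a complex and 0.13 for 1458 pairs between complexes, and complex III had the highest median within it, 0.37 over 15 pairs. After removal of group means the medians were 0.16 within and 0.11 between complexes. By complex they were then 0.20 in I, -0.07 in II, 0.39 in III, -0.02 in IV and -0.01 in V. Pairs among other genes were not computed. Before that removal the closest pairs were NDUFA1 with NDUFB8 (r = 0.907) and NDUFB1 with ATP5A1 (r = 0.883). The libraries share batches and groups, so these values describe the table.

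A set of 3 genes followed the number that ends the library description. It was 603 in 4 libraries, replicate 3 of NT, siCTRL, siVPS37B and siVPS37C. UQCRH, the hinge protein of complex III, was at 16.2 to 24.6 TPM in these 4 and at 1.60 to 5.33 TPM in the other 23. UQCRB was at 0.887 to 1.55 TPM against 0.15 to 0.50 TPM, and ATP5L at 348 to 514 TPM against 563 to 858 TPM. Complete separation of this kind was seen in 4.17% of the 72 genes and in 0.525% of all 10470. Since siCTRL has 1 of these libraries and siVPS37A and the pair and triple knockdowns none, differences of these 3 genes between groups were not read. No library given VPS37A siRNA has this number, so the libraries compared for that siRNA also differ in it.

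Other genes of the pathway were counted over lists in siVPS37ABC, where 8.32% of all genes were called lower and 13.6% higher. Assembly factors (4 of 43) and mitochondrial ribosomal proteins (5 of 69) were called lower at a share near that of all genes. Of 43 tested assembly factors 4 were lower and 0 higher, with a median of -0.23. They were ATPAF1 (-0.49 ± 0.13), which assembles the catalytic head of complex V, and NDUFAF6 (-0.56 ± 0.18), ACAD9 (-0.51 ± 0.18) and COA1 (-0.60 ± 0.18). Of 69 mitochondrial ribosomal protein genes 5 were lower and 0 higher (median -0.10), led by MRPL12 (-0.73 ± 0.16). Of 16 TCA cycle genes OGDH (0.55 ± 0.12) and SUCLA2 (0.56 ± 0.17) were higher and FH (-0.55 ± 0.20) lower. Of 12 glycolysis genes ENO2 (1.64 ± 0.24) and PGK1 (0.46 ± 0.13) were higher and LDHB (-0.66 ± 0.20) and GPI (-0.31 ± 0.11) lower. None of 15 regulators of mitochondrial biogenesis and mtDNA expression and none of 5 genes for electron carriers and the complex V inhibitor was called.

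With VPS37A siRNA cytochrome c (CYCS), which carries electrons from complex III to complex IV, rose by 0.48 ± 0.09 (adjusted p = 0.000155), and the transcription factor NRF1 changed by -0.28 ± 0.07 (adjusted p = 0.00359). With VPS37C siRNA the copper chaperone COX17 changed by -0.38 ± 0.09 (adjusted p = 0.00565), LRPPRC by -0.37 ± 0.08 (adjusted p = 0.00413) and the mitochondrial transcription factor TFAM by 0.28 ± 0.09 (adjusted p = 0.0379). Of all genes tested, 29.1% were called with VPS37A siRNA and 10.5% with VPS37C siRNA. The genes named here are examples from the lists, and the counts of list genes called with each siRNA are not given. Whether these changes bear on COX6B1 or NDUFA2 was not tested.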

How the data were processed

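The 27 libraries were prepared from total RNA with an Ion AmpliSeq human transcriptome panel, per the labels. The submitters' processing notes name hg19, DESeq2 1.18.1 and HTSeq 0.6.0 without saying what each was used for, so the counting, its use of strand and its handling of reads shared with near-identical copies and pseudogenes are not given in the sources used here. The deposited table is named as normalized counts, but every column sums to 1000000, so the deposited values were taken as TPM. No step that gives whole reads was found in the values, so depth is unknown and all errors come from replicates. Empty lines (2157) were left out.

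The scale used was log2(TPM + 1), on which changes of low genes are understated. A limma 3.58.1 model (R 4.3.3) with 1 mean per group, a trended prior and 18 residual df, without a block, was fitted to genes whose mean reached 10 TPM. For lower genes it was refitted with no filter. Libraries with the same replicate number deviated together from their group means (mean r = 0.356 over 108 pairs, against -0.175 over 216 pairs of different numbers), and the labels give this number as the batch, so it pairs the libraries. The fit with it as a block stands beside each count it moved by over 1.5 times. The script was tested on simulated data.

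Genes were chosen by name, and the members, lists and tests were chosen with earlier results of these data known. Every called gene was named, with the smallest p of each complex in siVPS37ABC, isoforms of a subunit, and the highest and lowest mean of each complex. Genes shown for replicate or library number, correlated pairs, NDUFA10, NDUFB1 and NDUFV2 were chosen after their values were seen. Promoter windows came from RefSeq by transcript accession and some genes that the name pattern takes in are not reported here. Alternatives were the block, a library number term, filters, a pseudocount of 8, quantile and median ratio scaling, NT as reference, only the groups compared, and omission of each library. Python 3.11.15 with numpy, pandas and matplotlib was used for summaries and figures.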

Additional observations from a re-analysis of the deposited data

How the results depend on the processing

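No called gene, and none of the genes with the smallest p of each complex in siVPS37ABC, changed direction under the alternatives and omissions run. Among named genes that did not pass, NDUFA4 in siVPS37ABC turned to 0.34 against NT and 0.36 with the library number term, and 3 omissions of 1 library also turned it. NDUFA10 in siVPS37B was at -0.01 against NT. Of the counts of called genes, 71 of 99 values under the alternatives and 128 of 147 under omission of 1 library were within 1.5 times the value without them. With the replicate block the counts were 3 in siVPS37A, 2 in siVPS37B, 1 in siVPS37C, 7 in siVPS37AB, 4 in siVPS37AC, 10 in siVPS37ABC, 2 in siCTRL against NT, 13, 15 and 4 with VPS37A, VPS37B and VPS37C siRNA and 25 over all groups, and it moved no other count by over 1.5 times. With the library number term they were 1 in siVPS37C, 6 in siVPS37AB, 15 in siVPS37AC, 1 in siVPS37BC, 12 in siVPS37ABC, 3 in siCTRL against NT, 22, 4 and 7 for the siRNAs and 25 over all groups. NT as reference gave 1 in siVPS37B and 9 in siVPS37AC. Only the groups compared gave 0 in siVPS37A, 1 in siVPS37AB and 1 in siVPS37AC, with fewer libraries in the fit. Median ratio scaling gave 1 in siVPS37AC and 2 with VPS37C siRNA, and no scaling moved the median of all genes by more than 0.102. The cause of these moves was not tested. Omission of 1 library gave 0 to 1 in siVPS37A, 0 to 3 in siVPS37AB, 0 to 1 in siVPS37AC, 3 to 5 in siVPS37ABC, 5 to 9, 5 to 12 and 1 to 3 for the siRNAs, 7 to 13 over all groups and 0 to 0 in the other comparisons. The unknown depth limits what can be said of genes below 10 TPM.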

Other observations

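Of the 6 genes below 10 TPM, 4 are given from the model without the filter, leaving out UQCRH and UQCRB, which follow the library number 603. In siVPS37ABC against siCTRL NDUFB6 was at -0.45 ± 0.43 (adjusted p = 0.510), NDUFV3 at 0.23 ± 0.17 (0.381), NDUFB3 at -0.13 ± 0.28 (0.790) and ATP5S at -0.03 ± 0.23 (0.950), by limma. NDUFA10, a complex I accessory subunit, had a higher group mean than siCTRL in all 7 knockdowns, though not than NT in siVPS37B, with 24.5, 29.0 and 23.1 TPM in siCTRL and 30.8, 26.9 and 34.1 TPM in NT. It did not pass in any of the 7 (adjusted p from 0.139 to 0.529), and these share the siCTRL libraries. With the replicate block it passed in siVPS37A (0.0168), siVPS37AB (0.0373) and siVPS37ABC (0.0311).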
